A study of Mus musculus with 7 samples.

Results

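Bend6, Kbtbd11 and Krt2, genes of the mouse hippocampus, were followed through the 7 RNA-seq libraries of a study of the immunoproteasome inhibitor ONX-0914. They were selected on their CPM in the ONX-0914 and control libraries, as genes in which the 2 ONX-0914 values were both above or both below every control value, and they are 3 of the 13152 genes tested and of the 55416 gene identifiers counted. Their difference between ONX-0914 and control animals is therefore given as a description, without a test, and so is their difference between ONX-0914 and DMSO animals, which uses the same ONX-0914 libraries. The difference between DMSO and control animals was tested, although the control libraries took part in the choice.

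The animals were male, age-matched CD1 mice, an outbred stock whose individuals differ genetically, and RNA from hippocampi was sequenced. The control group (3 libraries, replicates 1, 2 and 3) received no treatment. The ONX-0914 group (2 libraries, replicates 1 and 2) received 10 mg/kg by intraperitoneal injection 2 times a week for 2 months. The DMSO group (2 libraries, replicates 2 and 3) received the same volume of the vehicle by the same route and schedule. The labels do not say whether the libraries of a group came from separate animals, and p-values measure only the spread between these libraries.

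The libraries held 2842675 to 13782270 counts on genes, the largest being ONX-0914 replicate 2 and the other 6 holding at most 3877006. Counts were scaled to CPM (counts relative to TMM-scaled library sizes), and 3 counts correspond to 0.198 to 1.07 CPM. The ONX-0914 libraries differed from each other more than libraries of the other groups did. In replicate 1 all 14 marker genes of thalamus and midbrain and all 14 of striatum were above every control library, while in replicate 2, 5 and 4 of 14 were above and 5 and 2 below. Over all tested genes, replicate 1 was above every control library in 36.8% and below in 32.3%, and replicate 2 in 40% and 38.8%. In replicate 2 mitochondrially encoded genes took 3.71% of the counts, against 0.818% to 1.59% in the other libraries. Values are given for both ONX-0914 libraries separately for this reason.

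Bend6 encodes a nuclear protein with a BEN domain, a fold that binds DNA and other proteins. In neural progenitors it is known as an antagonist of Notch signalling that acts through the DNA-binding factor encoded by Rbpj. Kbtbd11 encodes a protein with a BTB domain and Kelch repeats. Proteins of this family bring substrates to the ubiquitin ligase built on Cullin-3, and ubiquitin marks proteins for the proteasome. Krt2 encodes a type II keratin, a subunit of the intermediate filaments of the upper layers of the epidermis, where it pairs with a type I keratin such as Krt10. ONX-0914 inhibits a catalytic subunit of the immunoproteasome, a form of the proteasome abundant in immune cells.

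The stretches before the start sites of Bend6 and Krt2 were compared, without a test of promoter sequence against the direction of the difference. Each is the 250 bases before the annotated start, from the RefSeq promoter table of GRCm38.p6, which held 2 of the 3 genes. Bend6 lies on the minus strand and the stretch is chr1:33907768-33908017. Krt2 also lies on the minus strand and its stretch is chr15:101818170-101818419. Capitals mark matches to the searched motifs described after the sequences, and everything else is in lower case.
Bend6: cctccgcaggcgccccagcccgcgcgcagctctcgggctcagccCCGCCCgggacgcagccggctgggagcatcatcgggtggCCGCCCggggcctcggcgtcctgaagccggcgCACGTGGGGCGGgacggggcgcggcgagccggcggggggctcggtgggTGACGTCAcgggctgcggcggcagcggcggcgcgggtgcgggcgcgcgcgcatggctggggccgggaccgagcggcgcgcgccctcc
Krt2: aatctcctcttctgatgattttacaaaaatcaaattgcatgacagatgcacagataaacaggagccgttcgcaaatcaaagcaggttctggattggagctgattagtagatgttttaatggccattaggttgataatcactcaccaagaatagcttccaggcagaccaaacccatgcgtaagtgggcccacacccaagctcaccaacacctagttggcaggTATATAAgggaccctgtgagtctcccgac

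The Bend6 stretch was among the richest in G and C of all promoters in the table. Its GC content was 83.6% and it held 45 CG dinucleotides, both at percentile 99.7 of 32851 promoters of 27025 genes, whose medians were 52.4% and 6. The Krt2 stretch had a GC content of 45.2% (percentile 25.7) and 4 CG dinucleotides (percentile 44.4). RefSeq lists a second, overlapping start for Bend6 with 80.8% GC. The counts are per gene and do not separate the starts.

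Motifs were searched on both strands. The Bend6 stretch held the cyclic AMP response element TGACGTCA with its first base at −87 from the start, which occurs in 1.55% of all promoters. It held the E-box CACGTG at −135, which occurs in 6.02%. It held 3 matches to the GC box GGGCGG or its reverse complement CCGCCC, at −206, −167 and −129, a motif found in 32.7% of promoters. The E-box and the GC box at −129 adjoin and are printed as 1 run of capitals. Before the second Bend6 start TGACGTCA lay at −233 and a single GC box at −102, and CACGTG was absent. The motifs and their positions thus depend on the start taken. The letters TGGGAA, the core of the sequence bound by the Rbpj product, were not in the Bend6 or the Krt2 stretch and occur in 21.6% of promoters. The Krt2 stretch held TATATAA at −29, a variant of the TATA box that was added to the search after the sequence had been read and that occurs in 3.04%. It held neither TATAAA, found in 12.4% of promoters, nor the other motifs. A match is a description of the letters and not a measured binding site.

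Bend6 was higher in both ONX-0914 libraries than in any other library. Its identifier is ENSMUSG00000042182 and it lies on chromosome 1, minus strand. The 3 control libraries held 87, 131 and 111 counts, or 31.0, 35.7 and 30.6 CPM. The 2 DMSO libraries held 139 and 126 counts, or 37.3 and 45.0 CPM. The 2 ONX-0914 libraries held 342 and 1799 counts, or 86.1 and 119 CPM. All 3 groups were separate, with the DMSO libraries between the control and the ONX-0914 libraries. The mean was 32.4 ± 2.85 CPM in control (SD, n = 3), 41.1 ± 5.43 in DMSO (SD, n = 2) and 102 ± 23.2 in ONX-0914 (SD, n = 2).

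In Kbtbd11 both ONX-0914 libraries were the lowest of the 7. Its identifier is ENSMUSG00000055675 and it lies on chromosome 8, plus strand. The control libraries held 1252, 1702 and 1756 counts, or 446, 464 and 484 CPM. The DMSO libraries held 1504 and 1114 counts, or 404 and 398 CPM. The ONX-0914 libraries held 645 and 3039 counts, or 162 and 201 CPM. The groups were again separate and in the opposite order to Bend6. The mean was 465 ± 18.6 CPM in control (SD, n = 3), 401 ± 4.13 in DMSO (SD, n = 2) and 182 ± 27.2 in ONX-0914 (SD, n = 2).

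Krt2 was scarce in the ONX-0914 libraries and at a like level in the other 5. Its identifier is ENSMUSG00000064201 and it lies on chromosome 15, minus strand. The control libraries held 48, 54 and 96 counts, or 17.1, 14.7 and 26.4 CPM. The DMSO libraries held 62 and 64 counts, or 16.6 and 22.8 CPM, both within the range of the control libraries. The ONX-0914 libraries held 10 and 26 counts, or 2.52 and 1.72 CPM. The lower of these was in the library with the most counts, where 3 counts are worth 0.198 CPM. The mean was 19.4 ± 6.19 CPM in control (SD, n = 3), 19.7 ± 4.39 in DMSO (SD, n = 2) and 2.12 ± 0.565 in ONX-0914 (SD, n = 2).

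**Figure D1:**
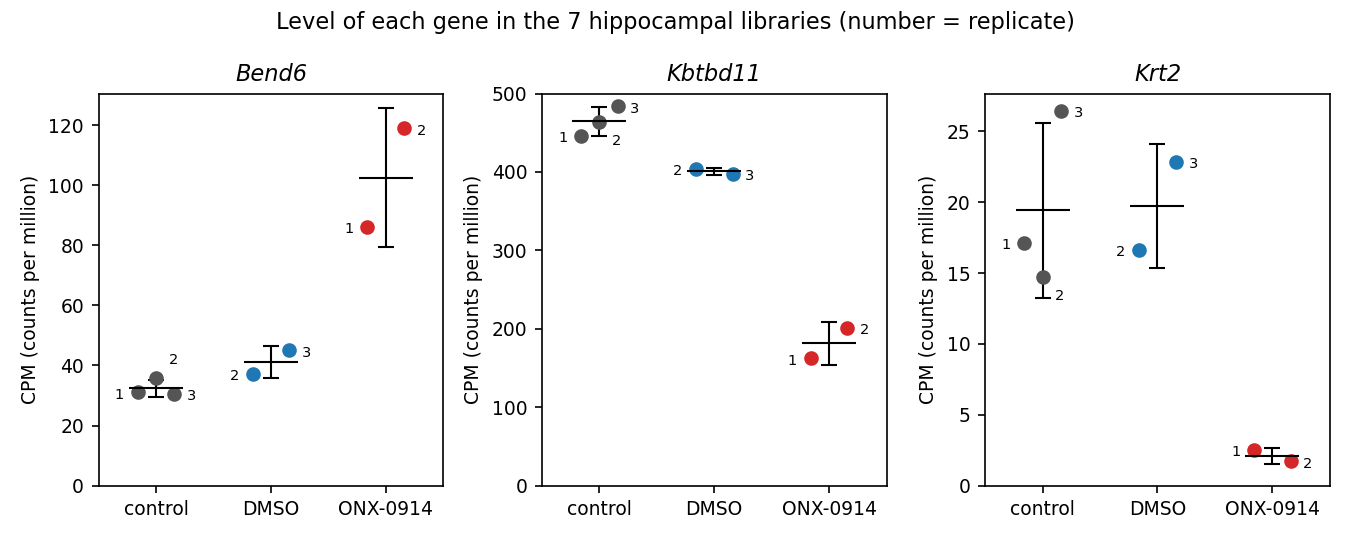
CPM of each gene (linear axis from 0) in the control, DMSO and ONX-0914 libraries, 1 point per library with its replicate number; the black dash is the group mean and the bar its SD. The 2 ONX-0914 points of Bend6 sit at 86.1 and 119 above all others, and those of Kbtbd11 (162 and 201) and Krt2 (2.52 and 1.72) sit below all others.

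The space between the groups was widest for Krt2. The ONX-0914 library nearest to the control libraries differed from the nearest of them 5.85-fold in Krt2, 2.41-fold in Bend6 and 2.22-fold in Kbtbd11. Against the nearest of all 5 other libraries the space was 5.85-fold, 1.91-fold and 1.98-fold. The control libraries themselves spanned 1.80-fold in Krt2, 1.17-fold in Bend6 and 1.08-fold in Kbtbd11. Of all genes tested, 16.9% had both ONX-0914 libraries above all control libraries and 16.3% had both below, and 11.4% and 11.3% had them above or below all 5 other libraries. Lying outside the other libraries is thus common, and it is what the 3 genes were chosen for.

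The genes also differed in how far the 2 ONX-0914 libraries lay apart. Bend6 was 1.38 times as high in replicate 2 as in replicate 1, and Kbtbd11 was 1.24 times as high. Krt2 was 1.46 times as high in replicate 1 as in replicate 2. Bend6 was thus farther from control in replicate 2, Kbtbd11 in replicate 1 and Krt2 in replicate 2. The SD within groups on the log2 CPM scale was 0.12 for Kbtbd11, 0.21 for Bend6 and 0.40 for Krt2. The biological coefficient of variation fitted by edgeR was 0.173 for Kbtbd11 (percentile 13.7 of the tested genes), 0.183 for Bend6 (percentile 22.6) and 0.250 for Krt2 (percentile 61.0).

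The levels of the 3 genes were compared with each other per kilobase of exon. Kbtbd11 stood highest in control animals at 65.1 ± 2.61 CPM per kb (SD, n = 3), at percentile 94.9 of 13138 tested genes with a length. Bend6 stood at 9.48 ± 0.834 CPM per kb (percentile 65.3) and Krt2 at 7.43 ± 2.37 (percentile 58.9), and the ranges of this pair overlapped over the control libraries. In ONX-0914 animals Bend6 stood at 29.96 ± 6.78, Kbtbd11 at 25.4 ± 3.81 and Krt2 at 0.810 ± 0.216 CPM per kb (SD, n = 2). Bend6 and Kbtbd11, which were far apart in control, differed there by less than the SD of Bend6.

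The first comparison set the DMSO animals against the control animals, which were not injected. Vehicle and injection cannot be told apart in it. None of the 3 genes passed the test between DMSO and control animals. For Bend6 the Log2FC was 0.34 (SE 0.209, 95% interval −0.14 to 0.82), with both DMSO libraries above all control libraries. For Kbtbd11 it was −0.21 (SE 0.171, 95% interval −0.61 to 0.18), with both DMSO libraries below all control libraries. For Krt2 it was 0.01 (SE 0.320, 95% interval −0.72 to 0.75), and the libraries overlapped. The FDR of edgeR's quasi-likelihood test with Benjamini–Hochberg adjustment over 13152 genes was 0.9999 for each of the 3 genes, and the unadjusted p-values of the model were 0.143, 0.245 and 0.970. The test called 2 genes (0.0152%), 1 higher and 1 lower (0.0076% each), and 349 genes (2.65%) had an unadjusted p under 0.05. Both DMSO libraries were above all control libraries in 15.7% of the tested genes and below in 15%, so that the positions of Bend6 and Kbtbd11 are common ones. The intervals leave room for a rise of Bend6 up to 0.82 and a decrease of Kbtbd11 down to −0.61 on the log2 scale.

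The second comparison set the ONX-0914 animals against the control animals, and these groups differed in inhibitor, vehicle and injection together. Bend6 was 3.17-fold higher, with a Log2FC of 1.66 (SE 0.201). Kbtbd11 was 2.56-fold lower, with a Log2FC of −1.35 (SE 0.178). Krt2 was 9.75-fold lower, with a Log2FC of −3.29 (SE 0.391). The Log2FC of Bend6 stood at percentile 98.6 of all tested genes, that of Kbtbd11 at 1.73 and that of Krt2 at 0.0988, around a median of 0.05. The test called 15 genes (0.114% of those tested), 5 higher (0.038%) and 10 lower (0.076%). Scaling by total counts turned this balance, with 14 called, 8 higher and 6 lower. In all 15 genes of the TMM fit both ONX-0914 libraries lay outside the control libraries. Bend6, Kbtbd11 and Krt2 are among the 15, and nothing is read from this because this comparison chose them. In RNA from tissue, a different share of cells that express a gene and a different amount of RNA per cell cannot be told apart.

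The size of the difference varied with the ONX-0914 library used, while its direction against control was fixed by the choice of the genes. Without replicate 1, the library with the high thalamic and striatal markers, the Log2FC was 1.86 for Bend6, −1.22 for Kbtbd11 and −3.501 for Krt2. Without replicate 2, the deep library, it was 1.40, −1.52 and −2.94. Scaling by total counts in place of TMM moved the median of all tested genes from 0.05 to 0.19, and the Log2FC of the 3 genes to 1.81, −1.21 and −3.13.

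The third comparison set ONX-0914 against its vehicle. Bend6 was 2.502-fold higher (Log2FC = 1.32, SE 0.226), Kbtbd11 was 2.204-fold lower (Log2FC = −1.14, SE 0.189) and Krt2 was 9.83-fold lower (Log2FC = −3.30, SE 0.411). The ONX-0914 libraries are the same as in the comparison with control. For Bend6 and Kbtbd11 the difference was smaller than against control, by the size of their DMSO difference, and for Krt2 the values against control and against DMSO were −3.29 and −3.30. The test called 6 genes in this comparison (0.0456%), 1 higher (0.0076%) and 5 lower (0.038%).

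**Figure D2:**
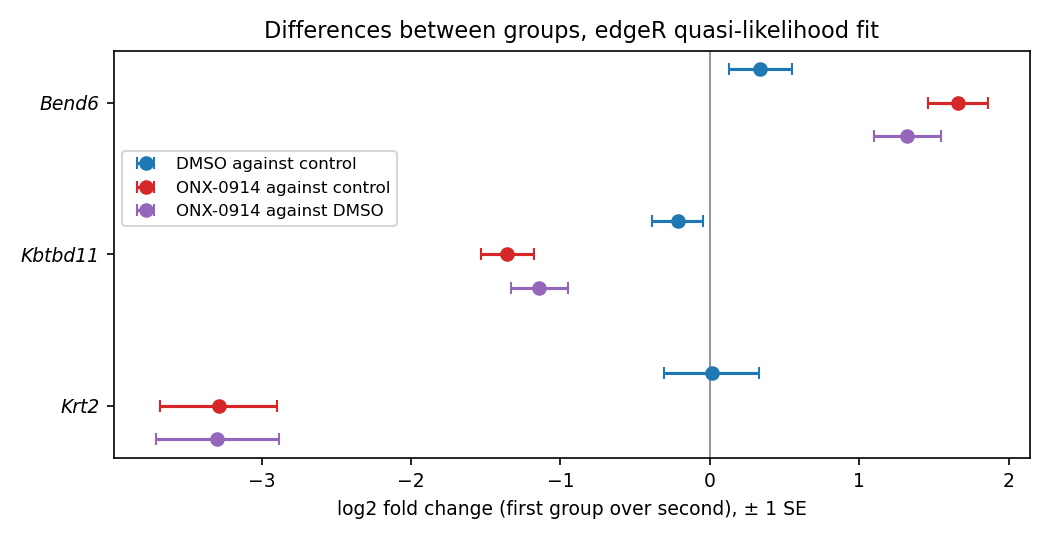
Log2 fold change of each gene in the 3 comparisons (horizontal axis), with bars of 1 SE from the edgeR fit. The DMSO against control points of Bend6 (0.34), Kbtbd11 (−0.21) and Krt2 (0.01) lie near 0, and those with ONX-0914 lie at 1.66 and 1.32, −1.35 and −1.14, and −3.29 and −3.30.

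The other genes of the pathways the 3 proteins belong to were taken as 9 lists with 140 genes, of which 110 were tested. No list gene was called by edgeR in any of the 3 comparisons. Of all tested genes 0.114% were called between ONX-0914 and control, 0.0456% between ONX-0914 and DMSO and 0.0152% between DMSO and control. Calls in lists of this size would therefore be rare, and nothing is read from their absence. Between ONX-0914 and control, 21 of the 110 (19.1%) had an unadjusted p under 0.05, against 18.6% of all tested genes. DESeq2 called 5 of them, Klhl2, Krt5, Krt73, Krt9 and Synm, each lower in ONX-0914, against 388 (3.01%) of all genes with an adjusted p, and limma voom called 0. Between ONX-0914 and DMSO, 16 (14.5%) had an unadjusted p under 0.05, against 14.7% of all tested genes. DESeq2 called 2 there, Klhl2 and Krt5, against 245 (2.2%) of all genes with an adjusted p, and limma voom 0. Between DMSO and control, 1 (0.909%) had an unadjusted p under 0.05, against 2.65% of all tested genes, and DESeq2 and limma voom called 0. Fold changes of list genes are therefore given as values of genes that did not pass the edgeR test.

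Among the 7 other BEN domain genes, 6 were tested, and their Log2FC between ONX-0914 and control was positive in 3 and negative in 3, with a median of −0.09. The most abundant were Nacc2, Nacc1 and Banp. Nacc1, which encodes a transcriptional co-repressor, was at 155, 161 and 161 CPM in control and at 135 and 132 in ONX-0914 (Log2FC = −0.25, FDR 0.39 in edgeR). Nacc2, a relative of Nacc1, was at 156 to 170 CPM in control and at 347 and 134 in ONX-0914, on both sides of the control libraries. Banp, which encodes a factor that binds at CpG-rich promoters, was at 12.1 and 28.2 CPM in ONX-0914, likewise on both sides of its control range of 17.8 to 21.2. Of these 3, Nacc1 alone had both ONX-0914 libraries outside the other 5, on the lower side. Over the 6 tested genes both ONX-0914 libraries were above all control libraries in 1 and below in 3, against 16.9% and 16.3% of all tested genes.

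No gene of Notch signalling, the pathway on which the BEND6 protein is known to act, was called. With 0.114% of all tested genes called between ONX-0914 and control, calls in a list of this size would be rare. Nothing is read from their absence. Of the 10 tested receptor and ligand genes, 9 had a positive Log2FC, with a median of 0.49, and both ONX-0914 libraries were above all control libraries in 5 and below in 1. Of all 13152 tested genes, 7075 had a positive Log2FC, and 16.9% had both ONX-0914 libraries above control and 16.3% both below. Of the most abundant, the receptor gene Notch2 was at 31.4, 31.6 and 37.2 CPM in control and at 24.2 and 25.8 in ONX-0914 (Log2FC = −0.42, FDR 0.27 in edgeR). The ligand gene Jag2 was at 26.7, 27.0 and 31.9 CPM in control and at 38.8 and 33.7 in ONX-0914 (Log2FC = 0.34, FDR 0.42). Dlk2, a ligand-like gene, overlapped between the groups (15.4 to 22.4 CPM in control, 19.1 and 21.6 in ONX-0914). Of the 10, 4 had an unadjusted p under 0.05, against 18.6% of all tested genes.

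Of the 15 genes of the Notch transcription complex and its targets, 11 had a positive Log2FC, with a median of 0.30. An unadjusted p under 0.05 was found in 1, against 18.6% of all tested genes. Both ONX-0914 libraries were above all control libraries in 3 and below in 0, against 16.9% and 16.3% of all tested genes. Rbpj, the DNA-binding factor of the pathway, was at 9.27, 6.82 and 9.64 CPM in control, 7.51 and 3.21 in DMSO and 12.8 and 15.1 in ONX-0914. Both ONX-0914 libraries of Rbpj were above the other 5 (Log2FC = 0.72 against control, FDR 0.29 in edgeR). The target genes Hey1 (67.3 to 70.6 CPM in control, 74.5 and 39.9 in ONX-0914) and Sox9 (26.7 to 34.6 CPM in control, 26.7 and 28.0 in ONX-0914) and the co-repressor gene Spen (74.9 to 88.1 CPM in control, 77.8 and 62.4 in ONX-0914) overlapped with control or lay on both sides of it. The abundant members therefore did not share the direction of the list's median.

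Of the 32 other Kelch-BTB genes 30 were tested, with 14 positive and 16 negative Log2FC values and a median of −0.01 between ONX-0914 and control. Both ONX-0914 libraries were below all control libraries in 7 and above in 2, against 16.3% and 16.9% of all tested genes. Klhl2, an adaptor for the degradation of WNK kinases, was at 393, 462 and 405 CPM in control, 426 and 484 in DMSO and 175 and 256 in ONX-0914 (Log2FC = −0.96, FDR 0.11 in edgeR). Both ONX-0914 libraries of Klhl2 were below the other 5, as in Kbtbd11. Enc1, an actin-associated member, was at 1061, 1026 and 1063 CPM in control and at 377 and 884 in ONX-0914 (Log2FC = −0.73, FDR 0.28). Both ONX-0914 libraries of Enc1 were below control, replicate 2 only a little. Ivns1abp was at 93.5 to 116 CPM in control and at 197 and 98.8 in ONX-0914.

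None of the genes of the Cullin-3 ligase was called, where 0.114% of all tested genes were called between ONX-0914 and control. Nothing is read from this absence. Cul3, the scaffold, was at 116, 108 and 101 CPM in control, 117 and 97.1 in DMSO and 108 and 147 in ONX-0914 (Log2FC = 0.24, FDR 0.50 in edgeR), and its Log2FC was −0.0024 without ONX-0914 replicate 2. Of the 23 genes of the ligase and of the neddylation system that activates it, 10 had a positive and 13 a negative Log2FC. The median was −0.02, and none had an unadjusted p under 0.05, against 18.6% of all tested genes. Cand1, which exchanges the substrate receptors of cullin ligases, was at 166 to 200 CPM in control and at 176 and 138 in ONX-0914. Cops6, a subunit of the complex that removes NEDD8, was at 157 to 170 CPM in control and at 172 and 97.7 in ONX-0914. Nedd8 was at 130 to 146 CPM in control and at 164 and 64.1 in ONX-0914.

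NFAT factors were included because KBTBD11 is known to act on NFATc1 in bone-resorbing cells. Of 5 genes 4 were tested, all 4 with a positive Log2FC and a median of 0.53. Both ONX-0914 libraries were above all control libraries in 1 of them, Nfatc2, against 16.9% of all tested genes. Nfatc1 itself was at 3.54 to 3.58 CPM in control and at 1.76 and 7.07 in ONX-0914, on both sides of control (Log2FC = 0.49, FDR 0.63 in edgeR). Nfat5 was at 49.6 to 59.2 CPM in control and at 51.6 and 87.4 in ONX-0914. Nfatc2 was at 5.23 to 7.49 CPM in control and at 10.6 and 14.1 in ONX-0914 (Log2FC = 0.91, FDR 0.18 in edgeR), and Nfatc3 at 6.61 to 10.4 and at 9.82 and 14.6 CPM.

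Most keratins other than Krt2 were rare in these libraries, and several of the detected ones lay below control in ONX-0914 animals. Of the 34 other keratin genes on the lists, 25 had any count and 10 were tested, and 8 of these had a negative Log2FC between ONX-0914 and control, with a median of −2.03. An unadjusted p under 0.05 was found in 5, and in 6 the ONX-0914 values were both under the lowest control value. Over all tested genes these shares were 18.6% and 16.3%. Between DMSO and control, 5 of the 10 were negative, with a median of −0.02.

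Krt5, the type II keratin of the basal layer of epithelia, was at 15.3, 5.73 and 4.41 CPM in control, 5.10 and 14.3 in DMSO and 0.503 and 0.264 in ONX-0914 (Log2FC = −4.58, FDR 0.074 in edgeR). The ONX-0914 libraries were far below the other 5, as in Krt2, but at 2 and 4 counts. Krt9, the keratin of palm and sole epidermis, was at 51.3, 41.4 and 39.9 CPM in control, 25.0 and 17.1 in DMSO and 20.1 and 3.57 in ONX-0914 (Log2FC = −2.03, FDR 0.16). Krt9 was lower in the DMSO libraries as well, unlike Krt2. Krt10, the usual partner of Krt2 in the epidermis, was at 8.91, 9.54 and 9.64 CPM in control, 6.44 and 6.07 in DMSO and 6.54 and 12.4 in ONX-0914 (Log2FC = 0.07, FDR 0.92). Krt10 thus lay on both sides of control, and its Log2FC was −0.52 without ONX-0914 replicate 2.

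The simple epithelial pair differed between the ONX-0914 libraries. Krt8 was at 12.5 to 22.4 CPM in control and at 21.9 and 0.727 in ONX-0914, and Krt18 was at 8.20 to 19.9 CPM in control and at 7.30 and 0.661 in ONX-0914. The summed level of the 34 keratins was 112 to 134 CPM in control, 96.3 and 111 in DMSO and 85.3 and 28.3 in ONX-0914. Krt2 made up 9.96% to 19.1% of the keratin CPM in control, 14.7% and 17.02% in DMSO and 2.87% and 5.73% in ONX-0914. The share of Krt2 was thus lower in both ONX-0914 libraries, although the sum of the other keratins was lower too. Shares of CPM depend on the lengths of the genes and compare libraries only.

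Other intermediate filament genes gave a median of −0.22 over 12 tested, 4 positive and 8 negative. Gfap, the astrocyte filament, was at 1118, 1344 and 754 CPM in control and at 803 and 449 in ONX-0914. The neurofilament genes Nefl (964 to 1138 CPM in control, 1005 and 386 in ONX-0914) and Nefm (977 to 1113 in control, 1533 and 298 in ONX-0914) were low in ONX-0914 replicate 2 alone. Synm, named after its values were seen, was at 167, 145 and 149 CPM in control and at 103 and 48.2 in ONX-0914.

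**Figure D3:**
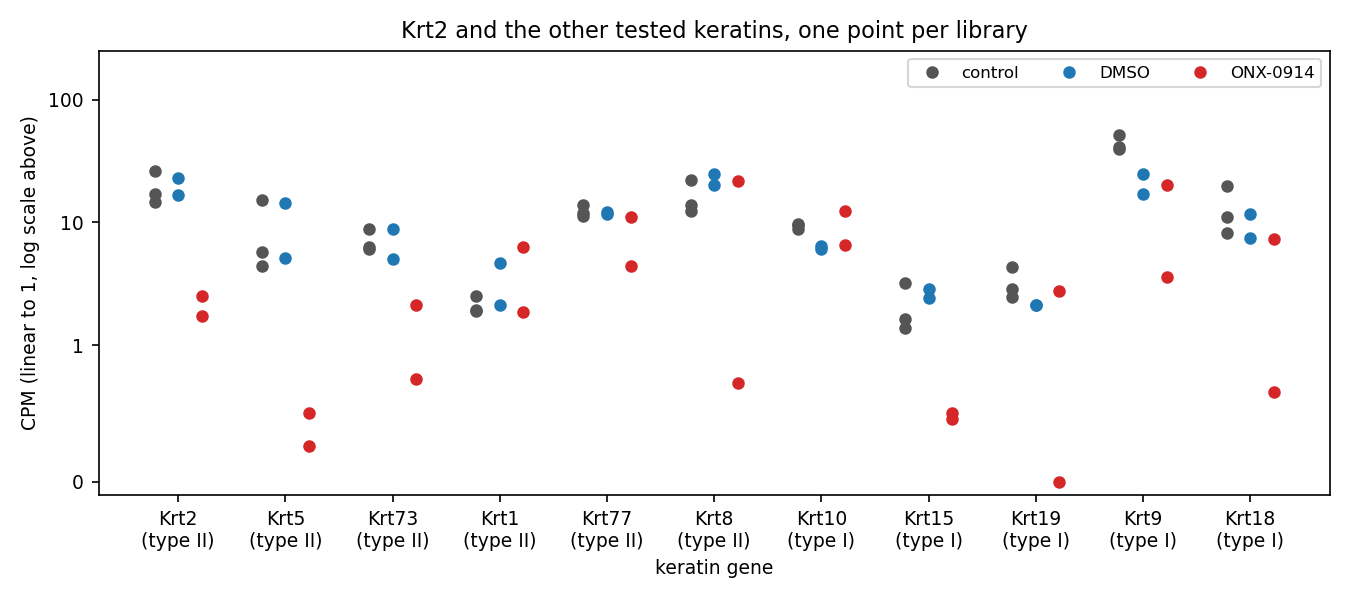
CPM (linear up to 1, log scale above) of Krt2 and of the 10 other tested keratins, 1 point per library, coloured by control, DMSO and ONX-0914. The ONX-0914 points of Krt2 (2.52 and 1.72), Krt5 (0.503 and 0.264) and Krt73 (0.755 and 2.12) lie below all other points of the same gene. So do those of Krt77 (11.1 and 4.43), Krt15 (0.503 and 0.463) and Krt18 (7.30 and 0.661). Those of Krt10 (6.54 and 12.4), Krt1, Krt8, Krt9 and Krt19 do not.

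The nearest protein-coding neighbours were taken beside the 3 genes. The genes on the lower side of Bend6 are Bag2 and Zfp451, and those on its other side are Dst and Ccdc115, in the gene order of GENCODE M21. Their Log2FC values between ONX-0914 and control were −0.75, −0.04, 0.22 and −0.31, none of them called by edgeR. Dst was at 290, 323 and 323 CPM in control, 237 and 256 in DMSO and 401 and 329 in ONX-0914. Both ONX-0914 libraries of Dst were above the other 5, on the same side as Bend6, replicate 2 only a little. Of all tested genes, 11.4% had this position. Beside Kbtbd11, Cln8 (Log2FC = −0.01) and Arhgef10 (Log2FC = 0.31) were not called, Myom2 was too rare to be tested and BB014433 is not among the counted genes here. Arhgef10 was at 33.6 to 37.9 CPM in control and at 41.8 and 45.5 in ONX-0914, above control, on the opposite side to Kbtbd11. Both ONX-0914 libraries were above control in 16.9% of all tested genes. With 0.114% of all genes called, calls among so few neighbours would be rare, and nothing is read from their absence.

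Krt2 lies in the cluster of type II keratins. Its neighbour Krt73, a keratin of the inner root sheath of hair, was at 8.91, 6.27 and 6.06 CPM in control, 8.85 and 4.998 in DMSO and 0.755 and 2.12 in ONX-0914 (Log2FC = −2.03, FDR 0.11 in edgeR). Both ONX-0914 libraries of Krt73 were below the other 5, as in Krt2 and in 11.3% of all tested genes. On the other side Krt1, a type II keratin of the upper epidermis, was at 1.91 to 2.496 CPM in control and at 6.29 and 1.85 in ONX-0914 (Log2FC = 0.72, FDR 0.57). Krt77 was at 11.3 to 13.9 CPM in control and at 11.1 and 4.43 in ONX-0914 (FDR 0.32). Krt72 had a count in 1 control library only.

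Sequence shared with other genes was counted, since the gene that a read from it belongs to can be unclear. Of the 100-base windows of the annotated transcripts, 0 of 3645 and 0 of 2514 of Bend6 and Krt2 occurred in a transcript of another gene. For Kbtbd11, 1676 of 7241 windows (23.1%) occurred in Gm37844, which lies on the opposite strand and held 0 to 14 counts per library. The library kit marks the strand, but the strand setting of the counting is not given in the sources used here. Gm37067, within the Bend6 locus, held 0 to 6 counts and shares no exon base with it.

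The genes whose profiles were most like those of the 3 genes were found by the root mean square difference of log2 CPM relative to the control mean over the 7 libraries. Nearest to Bend6 were A930017M01Rik (0.21), Slc16a4 (0.22) and Cstb (0.23), followed by C030037D09Rik and 1700019D03Rik (0.25 each). Cstb, which encodes an inhibitor of cathepsins, was at 4.64, 5.73 and 3.31 CPM in control, 4.56 and 6.78 in DMSO and 9.31 and 15.3 in ONX-0914. All 5 were rarer than Bend6, with a mean of at most 7.09 CPM over the libraries.

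Nearest to Kbtbd11 were Epha4 (0.13), Wscd2 (0.14), Parvg and Nck2 (0.15 each) and 2900026A02Rik (0.15). Epha4, an ephrin receptor of axons and synapses, was at 694, 664 and 671 CPM in control, 661 and 549 in DMSO and 228 and 351 in ONX-0914. Nck2, an adaptor protein gene of receptor tyrosine kinase signalling, was at 61.9 to 66.7 CPM in control and at 19.9 and 33.9 in ONX-0914. Kbtbd11 had nearer profiles than the other 2 genes.

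Nearest to Krt2 were the long non-coding RNA genes 3300002P13Rik (0.38) and Gm26644 (0.39), then Tmem114 (0.59), Gm43743 (0.61) and Chrna2 (0.62). 3300002P13Rik was at 258, 239 and 240 CPM in control, 199 and 291 in DMSO and 40.8 and 45.1 in ONX-0914. Gm26644 was at 25.0, 29.2 and 27.8 CPM in control, 34.3 and 45.3 in DMSO and 2.77 and 3.24 in ONX-0914. Chrna2, a nicotinic acetylcholine receptor subunit gene, was at 2.85, 2.999 and 4.41 CPM in control and at 0.252 and 0.793 in ONX-0914. The members of the 3 genes' own set were farther apart, with 0.92 between Kbtbd11 and Krt2, 1.63 between Bend6 and Kbtbd11 and 2.49 between Bend6 and Krt2.

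Marker genes of brain regions and cell types were summed in each library beside the 3 genes. The CA1 sum was 821 to 921 CPM in control and 365 and 850 in ONX-0914 replicates 1 and 2, with all 10 markers below every control library in replicate 1, and 5 below and 5 above in replicate 2. The dentate gyrus sum was 607 to 750 CPM in control and 288 and 590 in ONX-0914, with 10 and 7 of 12 markers below and 0 and 4 above. The 3 most abundant dentate gyrus markers were below every control library in both ONX-0914 libraries. Dock10 was at 137 to 172 CPM in control and at 102 and 80.4 in ONX-0914. Stxbp6 was at 124 to 161 and at 61.2 and 83.6 CPM, and Prox1 at 95.4 to 107 and at 37.0 and 89.15 CPM. The CA3 sum was 776 to 856 CPM in control and 505 and 607 in ONX-0914, with 7 and 4 of 10 markers below and 1 and 2 above. Over all tested genes 32.3% were below every control library in replicate 1 and 38.8% in replicate 2, and 36.8% and 40% were above, and the marker counts of all lists are to be read against these shares. The most abundant CA3 marker, Hs3st4, was at 291 to 373 CPM in control and at 157 and 120 in ONX-0914, Tyro3 was at 106 to 137 and at 127 and 152, and Cpne4 at 91.6 to 102 and at 34.5 and 94.0. Relative to the control mean on the log2 scale Kbtbd11 was at −1.52 and −1.21, while the CA1 sum was at −1.23 and −0.01, the dentate gyrus sum at −1.26 and −0.23 and the CA3 sum at −0.69 and −0.43. The part of these markers in the difference of Kbtbd11 was not tested.

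Markers of other regions were high in 1 ONX-0914 library. The thalamus and midbrain sum was 125 to 142 CPM in control and 1371 and 110 in ONX-0914, and the striatum sum 253 to 285 and 1484 and 221. Bend6 was at 86.1 and 119 CPM in the same libraries, and the part of these regions in its difference was not tested. The interneuron sum was above control in both ONX-0914 libraries (741 to 793 CPM in control, 1401 and 988 in ONX-0914), with 4 and 6 of 10 markers above every control library and 3 and 4 below. Its most abundant markers Gad1 (216 to 245 CPM in control, 405 and 254 in ONX-0914), Pvalb (112 to 136 and 356 and 53.8) and Gad2 (122 to 142 and 317 and 106) were high in replicate 1. The microglia sum was 305 to 334 CPM in control, 352 and 409 in DMSO and 370 and 523 in ONX-0914. In each ONX-0914 library 7 of 10 microglia markers were above every control library, with 1 below in replicate 1 and 2 below in replicate 2. Of its most abundant markers, Cx3cr1 was at 84.0 to 88.1 CPM in control and at 98.4 and 72.7 in ONX-0914, Csf1r at 46.7 to 53.2 and at 50.1 and 117, and Tmem119 at 45.7 to 48.0 and at 48.3 and 37.2. The part of interneuron and microglia markers in the difference of Bend6 was not tested.

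For Krt2 the markers of epidermis, the tissue where it is normally found, were examined. Flg, Ivl, Krtdap and Lce1a1 had 0 counts in all 7 libraries, and 10 of the 14 markers had any count. The epidermis sum was 31.7 to 47.8 CPM in control, 27.1 and 46.8 in DMSO and 30.2 and 26.4 in ONX-0914. Of the 10 markers with any count, 5 and 6 were below every control library in ONX-0914 replicates 1 and 2, and 3 and 1 above. Besides Krt10 and Krt5, the most abundant epidermis marker was Lor, a cornified envelope protein gene. Lor was at 8.91, 13.4 and 6.33 CPM in control and at 7.55 and 8.13 in ONX-0914. Of the 5 tested markers, both ONX-0914 libraries were below all control libraries in 2, Krt5 and Dmkn, and above in 0. Over all tested genes these shares were 16.3% and 16.9%. Dmkn was at 2.75 to 6.77 CPM in control and at 1.26 and 0.595 in ONX-0914 (Log2FC = −2.48, FDR 0.13 in edgeR). Sfn and Trp63, too rare to be tested, were also below control in both ONX-0914 libraries. The astrocyte sum was also below control in both ONX-0914 libraries, at 5107 and 4982 CPM against 5690 to 6075. Its markers did not move together: in replicate 1, 7 of 10 were above every control library and 2 below, and in replicate 2, 2 were above and 7 below. Its most abundant markers are Slc1a2 (2856 to 3089 CPM in control, 2287 and 3124 in ONX-0914), Gfap and Slc1a3 (630 to 667 CPM and 520 and 561). The part of these markers in the difference of Krt2 was not tested.

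**Figure D4:**
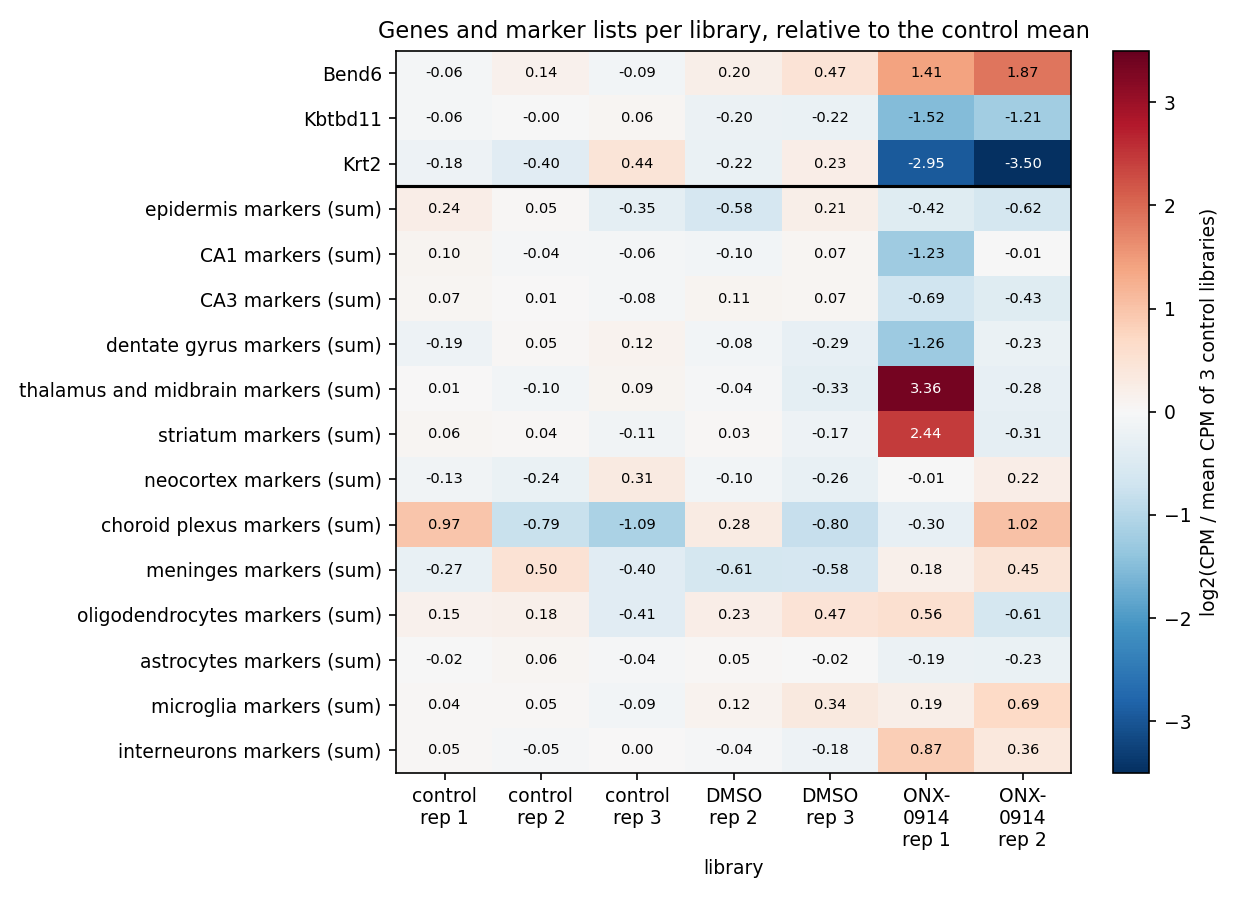
Log2 ratio of each library to the mean of the 3 control libraries, for the 3 genes (upper rows) and for the summed CPM of 13 marker lists (lower rows); columns are the 7 libraries and colour and number give the ratio. Bend6 (1.41 and 1.87), Kbtbd11 (−1.52 and −1.21) and Krt2 (−2.95 and −3.499) are given for the 2 ONX-0914 libraries, whose agreement in direction is what the genes were chosen for, and the thalamus and midbrain sum stands at 3.36 and −0.28.

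The 17 alternatives were other choices of scaling, filter, test and samples fitted, and the leaving out of each library in turn. The Log2FC between ONX-0914 and control moved most when a library was left out, from 1.40 to 1.86 for Bend6, from −1.52 to −1.22 for Kbtbd11 and from −3.501 to −2.94 for Krt2. The other settings gave 1.63 to 1.81, −1.37 to −1.21 and −3.30 to −3.01. Between DMSO and control, leaving out a library gave 0.20 to 0.47 for Bend6, −0.24 to −0.18 for Kbtbd11 and −0.23 to 0.31 for Krt2, and the other settings gave 0.26 to 0.35, −0.27 to −0.20 and −0.011 to 0.02. The FDR of these DMSO differences ran from 0.334 to 1 for Bend6, from 0.269 to 1 for Kbtbd11 and from 0.989 to 1 for Krt2 over the 17 alternatives, so that none was called.

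**Figure D5:**
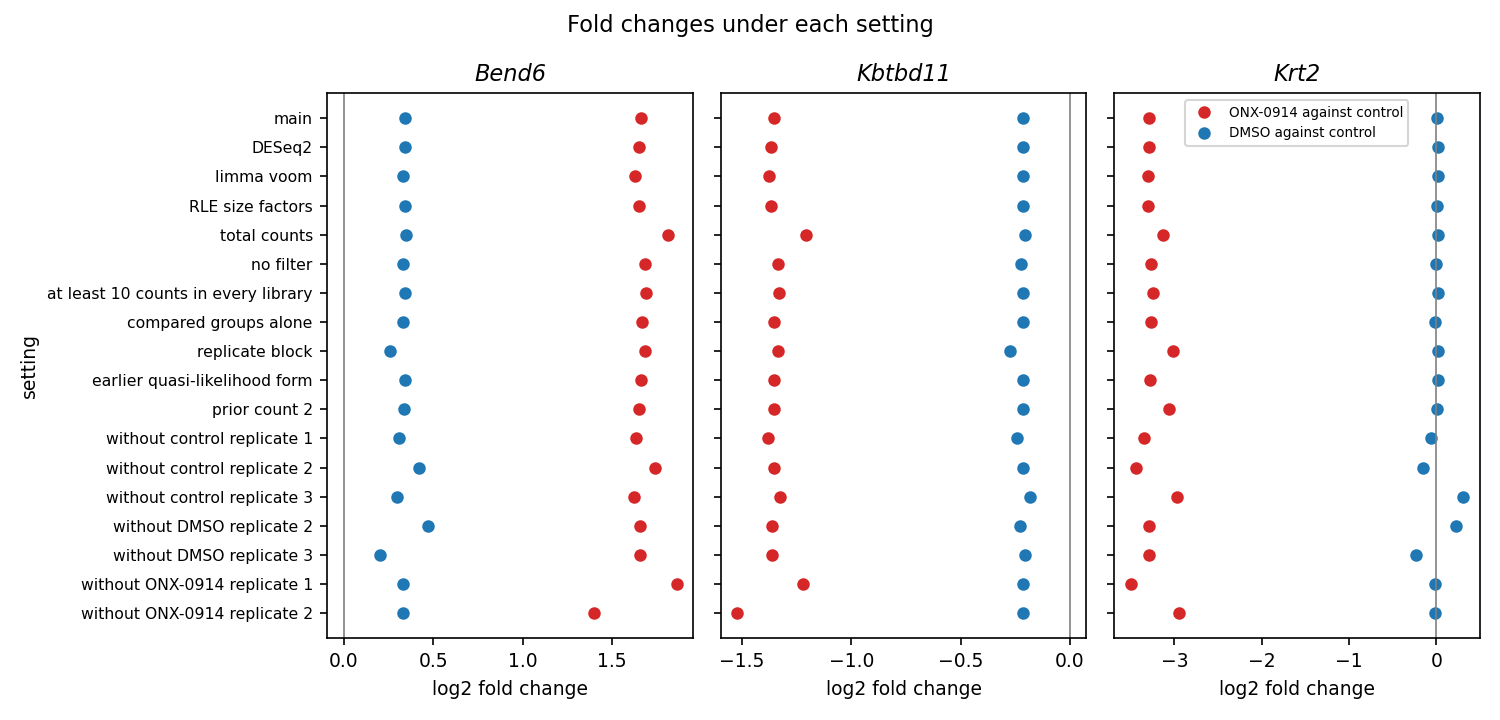
Log2 fold change of each gene (horizontal axis) between ONX-0914 and control (red) and between DMSO and control (blue) in the edgeR fit and under 17 alternative settings (vertical axis), each panel with its own scale. The red points run from 1.40 to 1.86 in Bend6, a direction fixed by the choice of the gene as in the other two, and the blue points of Krt2 fall on both sides of it.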

How the data were processed

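The 7 RNA-seq libraries of mouse hippocampus comprised 3 control, 2 DMSO and 2 ONX-0914. Libraries were made with a strand-marking kit and sequenced as single 100-base reads. The submitters' processing notes name Trimmomatic 0.39, STAR 2.7.3a, featureCounts 2.00 and the build GRCm39. For each library the authors deposited a file of raw counts, with 1 line per gene. Summary lines were left out of library sizes. They show 89.6% to 91.4% of reads assigned, 4.75% to 6.49% on no feature and 3.75% to 3.92% ambiguous. The annotation used for counting and its strand setting are not given in the sources used here.

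Counts were fitted in R 4.3.3 with edgeR 4.0.16 over all 7 libraries, with filterByExpr, TMM, 1 mean per group and the quasi-likelihood test. Genes with a Benjamini–Hochberg FDR under 0.05 were called. Log2FC values used a prior count of 0.125, and log2 CPM used 2. DESeq2 1.42.0 and limma 3.58.1 were alternatives, with other scalings, filters, subsets, a replicate block and each library left out. Symbols and lengths came from GENCODE M21, which is on GRCm38, so the only coordinates given are those of the promoter stretches, on GRCm38.p6. Of the identifiers, 52083 had a symbol, carrying 99.8% of counts. The scripts were tested on simulated data.

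The genes and lists were chosen with earlier results of these data known. Beyond the 3 genes, those named are the 3 most abundant of each list, 2 neighbours on each side, the 5 most alike profiles, the 3 most abundant markers of lists that moved with a gene, and Krt10, Cul3 and Rbpj. Synm, Nfatc1, Krt15, Krt19 and some epidermis markers were named after their values were seen. Counting limits cover counting error only.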

Additional observations from a re-analysis of the deposited data

How the results depend on the processing

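The number of called genes depended strongly on the setting. The direction of the 3 genes against control was fixed by their choice, and its persistence is no sign of stability. Between ONX-0914 and control, edgeR called 15 genes, DESeq2 388, edgeR with no filter 578 and with the compared groups alone 3. Leaving out 1 library gave 0 (without any 1 control library), 3 (without either DMSO library), 2594 (without ONX-0914 replicate 2) and 7023 (without ONX-0914 replicate 1). A single remaining ONX-0914 library is assumed to vary like the other groups. Between ONX-0914 and DMSO the counts were 6, with DESeq2 245, RLE size factors 11, total counts 3, no filter 297, at least 10 counts in every library 10, the compared groups alone 0 and 0 to 6313 with 1 library left out. Between DMSO and control they were 2, with DESeq2 9, limma voom 0, no filter 11, at least 10 counts in every library 0, the compared groups alone 141 and 0 to 146 with 1 library left out, the high values being without an ONX-0914 library (131 and 146). List genes called between ONX-0914 and control numbered 0 in the edgeR fit, 5 in DESeq2, 6 with no filter and 0 to 54 with 1 library left out. Against DMSO they numbered 0, 2, 4 and 0 to 52, and between DMSO and control 1 with the compared groups alone and 0 to 1 with 1 library left out. The causes were not tested.

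Leaving out 1 library moved the Log2FC of Bend6 to between 1.40 and 1.86 against control and between 1.07 and 1.53 against DMSO, and that of Kbtbd11 to between −1.52 and −1.22 and between −1.31 and −1.01. Total counts gave −1.21 and −1.003 for Kbtbd11. The Krt2 difference between DMSO and control was −0.0037 with no filter, −0.011 with the compared groups alone and −0.23 to 0.31 with 1 library left out. Krt10 between ONX-0914 and control ran from −0.52 to 0.38, and Cul3 from −0.0024 to 0.43, with 1 library left out. Cul3 between DMSO and control ran from −0.16 to 0.11.

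Samples with the same replicate number did not deviate together (correlations from −0.096 to 0.064), so the numbers were not used to pair them. A fit with the replicate number as a block called 1 gene between ONX-0914 and control, 0 between ONX-0914 and DMSO and 0 between DMSO and control, and gave Log2FC values against control of 1.68 for Bend6, −1.34 for Kbtbd11 and −3.01 for Krt2. With 10 and 26 counts in ONX-0914, Krt2 is the gene most limited by depth.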
